A study of Mus musculus with 37 samples.

Results

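Semaphorins are guidance proteins that tell growing axons, dendrites and migrating cells where to go. The class 3 members are secreted and act through a complex of a neuropilin, which binds the ligand, and a plexin, which carries the signal into the cell, whereas most members of classes 4 to 7 are anchored in the membrane and bind plexins directly. In the hippocampus this family is known for shaping the paths of axons and the density of spines, and Sema3f, which binds Nrp2 together with Plxna3, is the member known for pruning mossy fiber branches.

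The 31 members described here are the genes of the deposited tables whose symbol begins with Sema3, Sema4, Sema5, Sema6, Sema7 or Plxn, or is Nrp1 or Nrp2, out of 21975 genes in all. They comprise 20 semaphorins (7 of class 3, 6 of class 4, 2 of class 5, 4 of class 6 and 1 of class 7), 9 plexins and both neuropilins. Sema3f was already known from earlier results on these data to differ between PTE+ and PTE- mice in the contralateral hippocampus, so its values in that comparison are given as a description, and the question was whether any other member follows it.

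Male wild-type mice, whose strain the sample labels give as CD31 and the methods as CD1, received a unilateral controlled cortical impact (CCI), a contusion of 1 hemisphere, or sham surgery with a craniectomy and an EEG electrode. Injured mice with at least 2 epileptic episodes on video EEG were called PTE+ (post-traumatic epilepsy) and the other injured mice PTE-. Hippocampal astrocytes were pulled down 4 months after surgery with beads that bind ACSA-2, an astrocyte surface antigen, and the hemisphere of the impact (ipsilateral) and the other one (contralateral) gave separate libraries of amplified cDNA. The contralateral side gave 5 PTE+, 10 PTE- and 5 sham libraries (20 mice), the ipsilateral side 4, 8 and 5 (17 of the same mice), and mice are named here as in the labels (a8_10 and so on).

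The libraries held 25371887 to 59846479 counts, and 9020 to 15545 genes had at least 1 count, with the fewest in the ipsilateral library of PTE- mouse a8_11. Summed over the 12 astrocyte markers, among them Aqp4 and Slc1a3, each library held 12572 to 39394 CPM (counts scaled to a common library size after TMM), against 27.1 to 1294 CPM for 8 microglial and 52.4 to 1421 CPM for 9 neuronal markers. Endothelial and mural markers (8 genes) summed to 661 to 5822 CPM and oligodendrocyte lineage markers (8 genes) to 462 to 2854 CPM. Ependymal and choroid plexus markers (6 genes) reached 37.9 to 5882 CPM and fibroblast markers (4 genes) 23.8 to 1123 CPM. The biological coefficient of variation, the spread between mice in the edgeR fit, was 1.32 in contralateral and 1.40 in ipsilateral libraries. In whole-population RNA of this kind, fewer cells that use a gene and less RNA per cell cannot be told apart.

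Among all members the astrocytes held most transcript per length of Sema4a, a membrane-bound ligand of class 4, with a mean of 110 TPM (an abundance per transcript length, scaled to a fixed total) ± 54.1 (SD, n = 37 libraries). Next came Plxnb2 (68.9 ± 37.01 TPM, SD, n = 37), a receptor of class 4 semaphorins, Sema6d (42.5 ± 20.2 TPM, SD, n = 37), a transmembrane ligand of plexin A receptors, and Plxnb1 (41.4 ± 15.9 TPM, SD, n = 37), the receptor of Sema4d. Sema4b (17.1 ± 8.96 TPM), Nrp1 (16.1 ± 13.9 TPM), Sema4d (15.2 ± 11.6 TPM) and Sema5b (14.4 ± 13.2 TPM) followed over the same 37 libraries. Sema6d and Plxnb1 differed by far less than their SD, as did the 4 members that followed. Among plexins the next levels were Plxna3 (6.46 ± 6.10 TPM), Plxnb3 (6.44 ± 7.17 TPM) and Plxna1 (5.62 ± 4.03 TPM), and Nrp2 had 7.47 ± 8.88 TPM. Sema3f ranked 23 of 31 with 3.08 ± 6.08 TPM, and the lowest mean belonged to Sema3a (0.340 ± 1.196 TPM), the classical ligand of Nrp1.

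**Figure D1:**
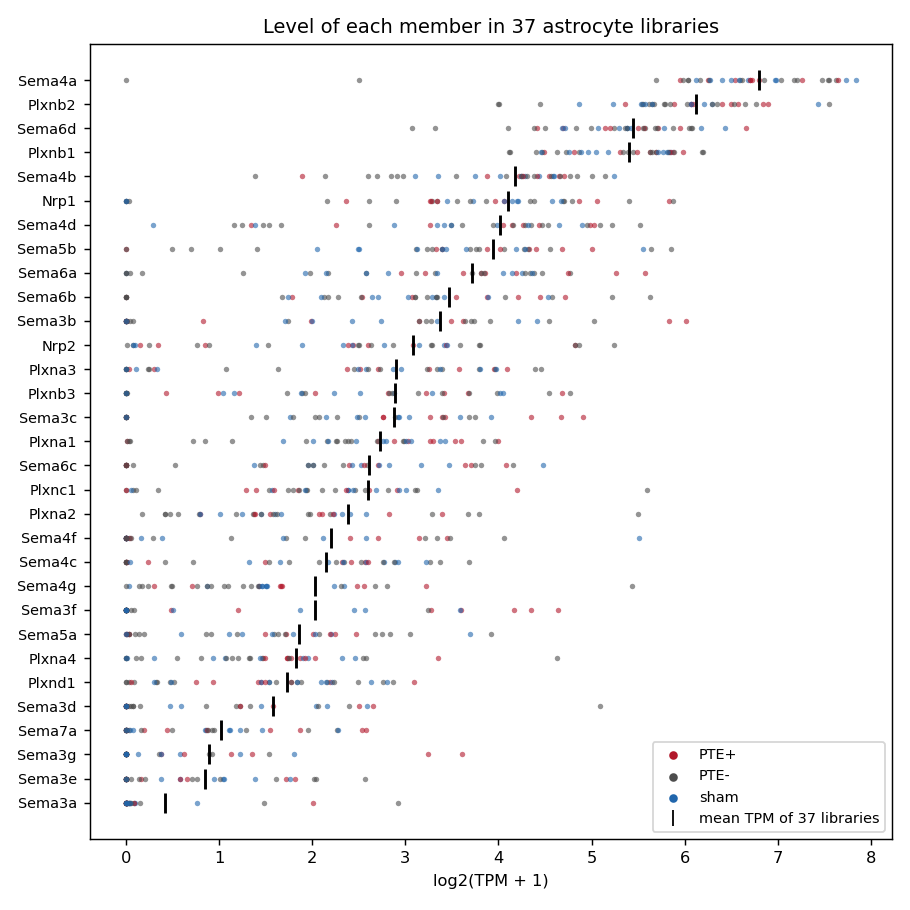
Level of each of the 31 members on the log2(TPM + 1) scale, 1 point per library (37 libraries, colored by group) and a black tick at the mean TPM; members are ordered by that mean. Sema4a lies at the top with a mean of 110 TPM, and Sema3f at rank 23 shows many libraries at 0 beside a few of high level.

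Only 6 members, Plxnb1, Plxnb2, Sema6d, Sema4b, Sema4d and Plxna2, had more than 3 counts in every one of the 37 libraries, and a gene is called here at the limit in a library that gave it 3 counts or fewer. The class 3 ligands were the most patchy. Sema3a was above the limit in 9 libraries, Sema3f in 13, Sema3g in 15, Sema3d in 18, Sema3e in 22, Sema3b in 25 and Sema3c in 28. Such an on or off pattern was not confined to class 3, since Sema4f, a membrane-bound class 4 ligand, was above the limit in 20 libraries and reached 80.6 CPM in sham mouse a9_9. The amplified libraries carry no molecular identifiers in the methods, so limits of this kind cover counting error only.

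**Figure D2:**
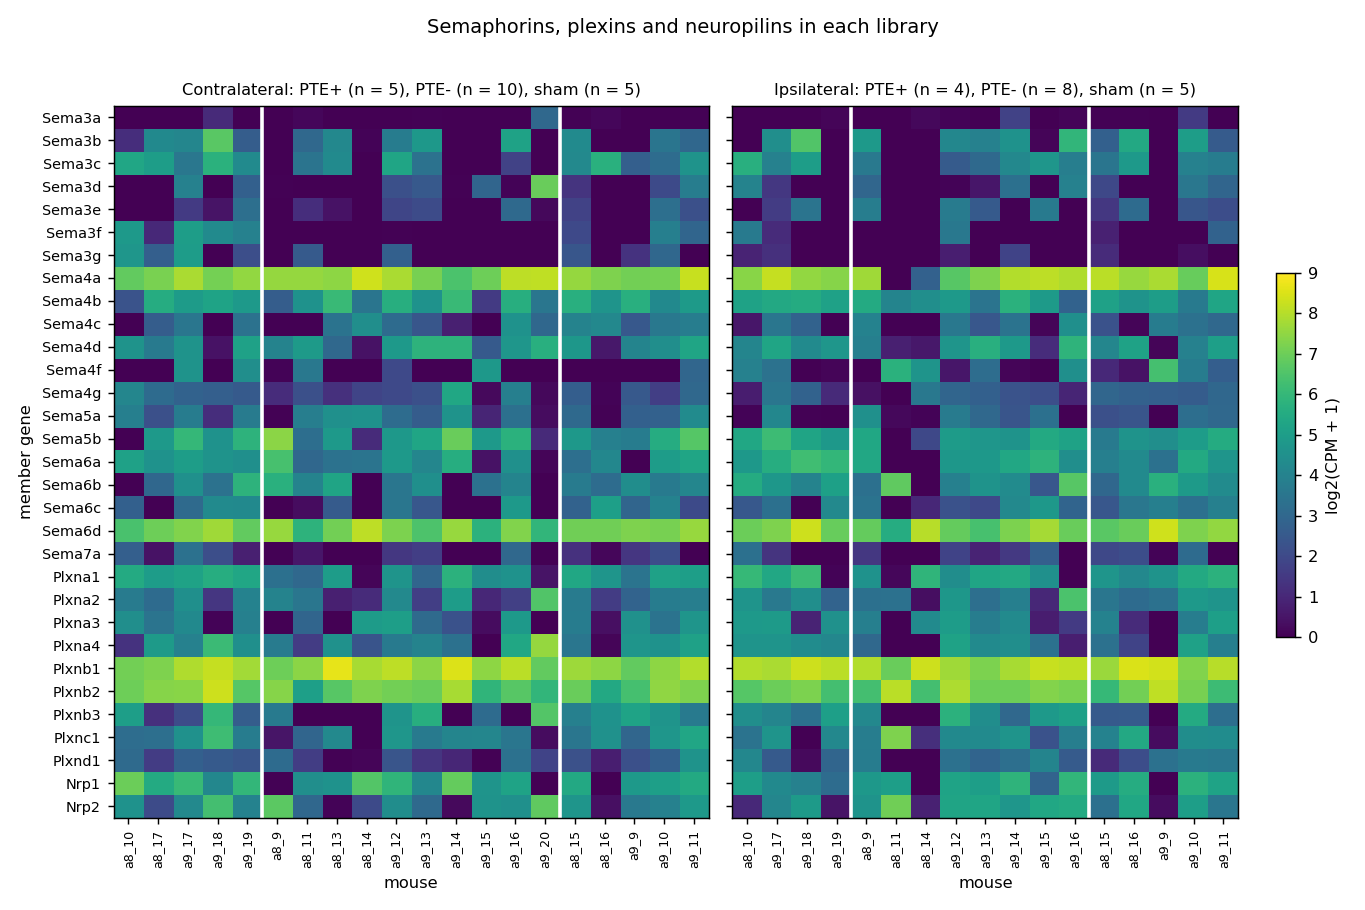
Level of the 31 members (rows) in each library (columns, named by mouse), as log2(CPM + 1) from 0 (dark) to 9 (bright), with white lines between the PTE+, PTE- and sham groups of each hemisphere. In the Sema3f row the contralateral PTE+ libraries show signal, faintest in a8_17 at 1.04 CPM, the 10 contralateral PTE- libraries are dark, and no other row repeats that division.

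In the contralateral hippocampus Sema3f (ENSMUSG00000034684, GRCm38 chromosome 9 from 107681500 to 107710475, minus strand) separated PTE+ from PTE- mice. The PTE+ libraries held 27.98 CPM (a8_10), 1.04 CPM (a8_17), 31.1 CPM (a9_17), 18.9 CPM (a9_18) and 14.3 CPM (a9_19), a mean of 18.7 ± 11.9 CPM (SD, n = 5). Of the 10 PTE- libraries, 8 held no count at all, a8_13 held 1 and a9_12 held 2. The lowest PTE+ library, with 41 counts, thus lay above the highest PTE- library. Against the limit of 3 counts per library, averaged over the PTE- group, Sema3f was at least 245-fold higher in PTE+ mice, or at least 204-fold without the highest PTE+ library. The fitted log2 fold change was 10.85 (SE 1.75, adjusted p = 0.0453 in edgeR), a size that depends on the prior count because the PTE- group was at the limit.

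Sham mice were divided. Their contralateral libraries held 2.97 CPM (a8_15), 13.9 CPM (a9_10) and 6.65 CPM (a9_11) of Sema3f, while a8_16 and a9_9 held none. Their mean of 4.70 CPM was at least 61.7-fold above the PTE- limit, and at least 31.5-fold without a9_10. The fitted log2 fold change of PTE- against sham was -8.86 (SE 1.63), with an unadjusted p of 1.9e-05 and an adjusted p of 0.279 in edgeR, against an adjusted p of 2.142e-06 in DESeq2. PTE+ and sham overlapped, with 4 of 5 PTE+ libraries above every sham library, and their fitted log2 difference was 1.98 (SE 1.65, p = 0.241 in edgeR). With limma on log2(TPM + 1) that difference was 1.84, with an unadjusted p of 0.0139. An exact permutation test of log2(CPM + 1) over libraries gave p = 0.022 for PTE- against sham and 0.0794 for PTE+ against sham. The first uses the PTE- and the second the PTE+ values for which Sema3f was already known. All p-values of both comparisons are therefore given as a description. Without sham a8_15, a9_10 or a9_11 the exact p for PTE- against sham rose to 0.0659. Without PTE+ a8_17 the exact p for PTE+ against sham fell to 0.0159, and without sham a9_10 it fell to 0.0476. These libraries held the lowest PTE+ and the highest sham value, so leaving either out could only widen the difference.

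The adjusted p of Sema3f was sensitive to single libraries. It stayed under 0.05 in edgeR without PTE+ a8_17 (0.0452) and without PTE- a9_12 (0.0375), and ranged from 0.0972 to 0.166 when any one of the other 13 contralateral libraries of injured mice was left out, highest without PTE+ a9_17. The mice bear the prefix a8 or a9, whose meaning the labels do not give. Within a8 both PTE+ and 0 of 4 PTE- libraries were above the limit, and within a9 all 3 PTE+ and 0 of 6 PTE- libraries were. A full separation of the groups fixes these counts in any subset, so they carry no test.

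In the ipsilateral hippocampus the groups overlapped. Sema3f reached 11.8 CPM in PTE+ a8_10 and 1.16 CPM in a9_17 and was absent from a9_18 and a9_19. Of the 8 PTE- libraries only a9_12 held any, at 11.1 CPM, and of the 5 sham libraries a8_15 held 0.784 CPM and a9_11 held 6.03 CPM. The fitted log2 fold changes were 1.22 (SE 2.66, p = 0.652) for PTE+ against PTE-, 0.03 (SE 2.57, p = 0.992) for PTE- against sham and 1.25 (SE 3.02, p = 0.684) for PTE+ against sham, all in edgeR. With each library's detected genes as a covariate, added after the data were seen, Sema3f gave 4.31 (unadjusted p = 0.00685 in edgeR) for PTE+ against PTE- and 3.24 (unadjusted p = 0.0283 in edgeR) for PTE+ against sham, with adjusted p-values of 1. In the edgeR fit of all ipsilateral libraries without that covariate, the SE values, which are derived from the F test, exceeded the fold changes. The ipsilateral data therefore do not show that the groups were alike.

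**Figure D3:**
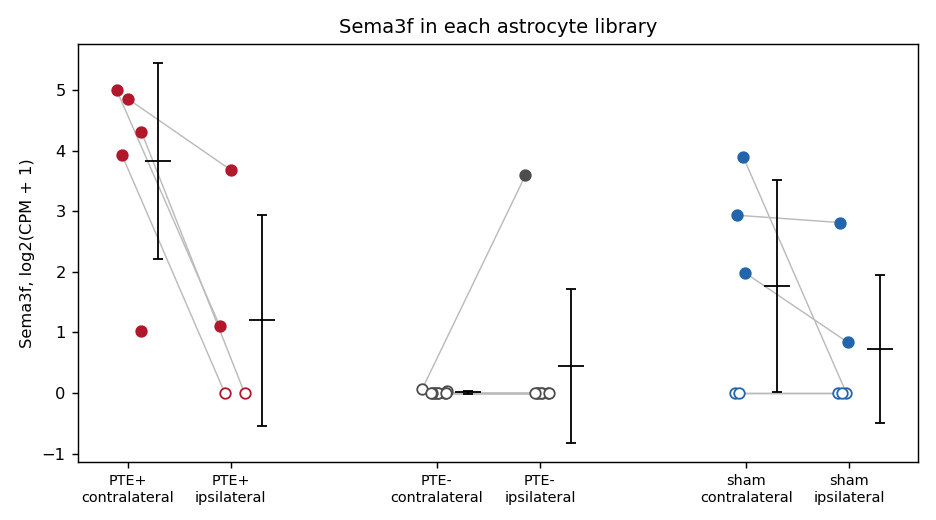
Sema3f on the log2(CPM + 1) scale in each library, with gray lines joining the hemispheres of a mouse, filled points above and open points at the limit of 3 counts, and black bars for the mean ± SD of each group and hemisphere. All 5 contralateral PTE+ points are filled, all 10 contralateral PTE- points are open, and every PTE+ line descends to the ipsilateral side.

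Within the 17 mice that gave both libraries, Sema3f was above the limit on both sides in 4 (2 PTE+ and 2 sham), on the contralateral side alone in 3 (2 PTE+ and 1 sham), on the ipsilateral side alone in 1 (PTE- a9_12) and on neither in 9. In all 4 PTE+ mice the ipsilateral value was the lower one, by a mean of -3.33 ± 1.45 (SD) on the log2(CPM + 1) scale. The side-to-side difference of PTE+ mice minus that of PTE- mice was -3.77 on this scale, and the fitted interaction was -10.15 (SE 4.01 in edgeR). Both contain the contralateral values for which Sema3f was already known, which alone make the difference lower in PTE+ mice, so they are given with no test. In PTE- mice the fitted ipsilateral excess of Sema3f (log2 7.32, SE 2.45, unadjusted p = 0.00527 in edgeR) came from a9_12, and without that mouse the fit gave a difference of 0.

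Marker genes of other cells and the number of detected genes were set beside these values. Summed neuronal markers ranged from 150 to 1421 CPM (median 293) in contralateral PTE+ and from 127 to 394 CPM (median 196) in contralateral PTE- libraries, and none of the 9 was at the limit throughout either group. Summed endothelial and mural markers ranged from 1515 to 5822 CPM (median 2722) against 1324 to 3132 CPM (median 2754). Contralateral PTE+ libraries had 13859 to 15028 detected genes and PTE- libraries 11756 to 15315. Of the 10 PTE- libraries, 4 had more detected genes than the lowest PTE+ library (13911 to 15315 genes) and 6 had fewer (11756 to 13193 genes), and all 10 had at most 2 counts of Sema3f. With detected genes as a covariate, the contralateral log2 fold change of PTE+ against PTE- was 10.30 and the adjusted p 0.225 in edgeR.

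The other members were then asked for the same division. Of the 31 members, 30 could be tested in each fit, Sema3a falling to the filter on low counts. In contralateral PTE+ against PTE- mice 1 of the 30 had an unadjusted p under 0.05, beside 2.21% of all genes tested. The same member was the only one of all 14642 genes with an adjusted p under 0.05 (0.00683%). That member was Sema3f, already known in this comparison, so both calls are given as a description. The other 29 had fitted log2 fold changes from -1.78 (Sema3d) to 3.61 (Sema3g), 18 of them positive, with standard errors from 0.29 (Sema4a) to 2.39 (Sema3d) and no p below 0.095 in edgeR. The median over the 30 members was 0.23, against -0.05 over all genes. In PTE- against sham mice 1 of 30 passed, again Sema3f, whose PTE- values were already known, beside 1.54% of all genes. In PTE+ against sham 0 of 30 passed in edgeR or DESeq2, beside 1.23% of all genes in edgeR and 390 of 17640 in DESeq2.

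No ipsilateral comparison had a member with an unadjusted p under 0.05 in edgeR: 0 of 30 in PTE+ against PTE- (1.75% of all genes), 0 of 30 in PTE- against sham (1.58%) and 0 of 30 in PTE+ against sham (1.66%). DESeq2 also gave 0, of the 29 members it tested, in each of these comparisons. At that threshold it called 542, 562 and 390 of 16933 genes, in the same order. With detected genes as a covariate, Sema3f and Plxna4 passed in PTE+ against PTE-, and Sema3f, Plxna4, Plxnb3 and Sema3g in PTE+ against sham. Each was higher in PTE+ mice and none had an adjusted p under 0.05. With that covariate 700 of all 14903 genes passed in PTE+ against PTE- (461 higher in PTE+ mice), and 696 against sham (502 higher). In the edgeR fit of all libraries without a covariate, the smallest ipsilateral p was 0.157, for Nrp2 in PTE+ against PTE- mice. Between hemispheres, 0 of 30 passed in PTE+ mice (2.93% of all genes), 1 of 30 in PTE- mice (4.56%) and 0 of 30 in sham mice (2.05%), and 1 of 30 passed in the interaction of side with PTE+ against PTE- status (2.94%). Both calls were Sema3f, whose known contralateral values enter them, and under the replicate block by mouse each of these 4 counts was 0. Single libraries decided several of these counts. Without PTE- a9_12, Sema3f passed on the ipsilateral side in PTE+ against PTE- (log2 fold change 10.31, unadjusted p = 0.00673 in edgeR) and in PTE- against sham (-9.06, unadjusted p = 0.00998 in edgeR). Leaving out mouse a9_12 on both sides ended the Sema3f calls between the sides of PTE- mice and in the interaction. Without PTE+ a9_17, Sema5a passed in ipsilateral PTE+ against PTE- (-7.22, unadjusted p = 0.0165 in edgeR) and against sham, between the sides of PTE+ mice and in the interaction. Without sham a9_11, Sema4f passed in both contralateral comparisons with sham and between the sides of sham mice. In the interaction Nrp2 passed without PTE- a8_9 and Sema3a without PTE+ a9_19, and no adjusted p of these was under 0.05.

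**Figure D4:**
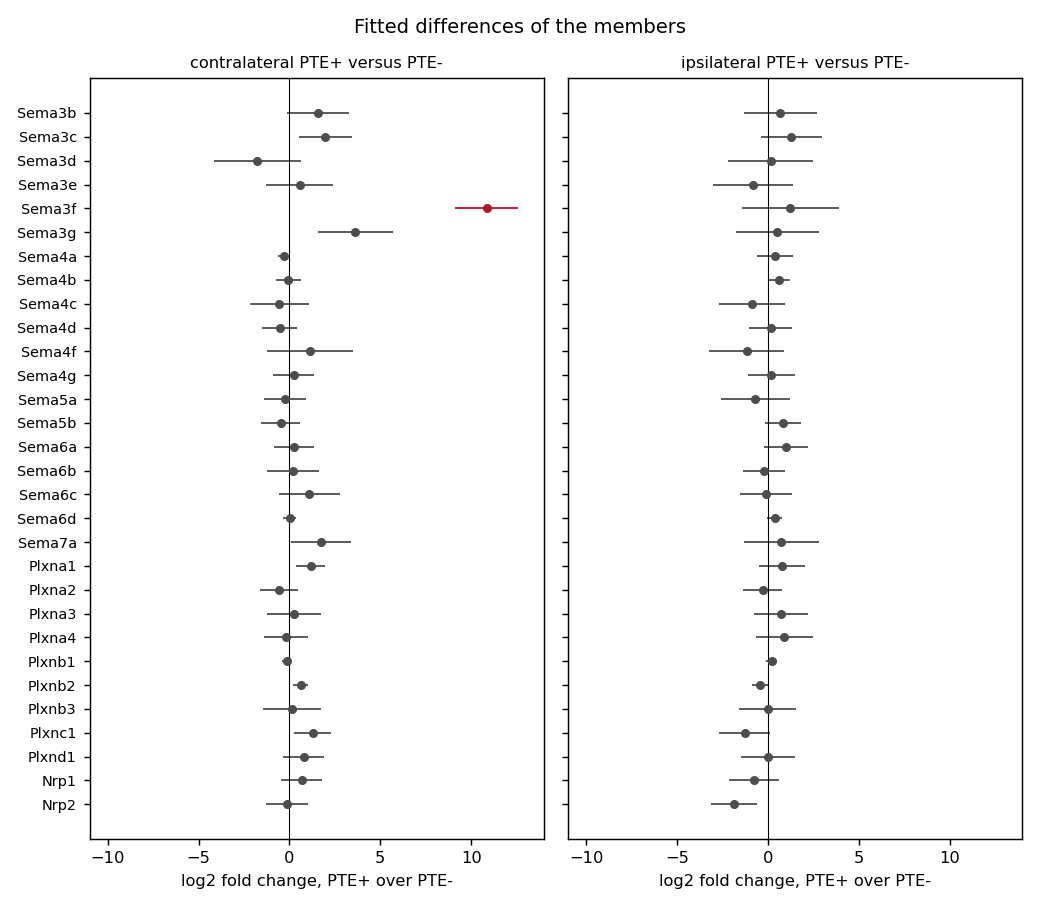
Fitted log2 fold change of PTE+ over PTE- mice (points) with its standard error derived from the F test (bars) for the 30 members tested in the contralateral (left) and ipsilateral (right) hippocampus. Red marks an unadjusted p under 0.05. Sema3f at 10.85 in the contralateral panel is the only red point, and the other 29 lie between -1.78 and 3.61 there.

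A member was said to follow Sema3f where every contralateral PTE+ library was above every PTE- library. None of the other 30 members met this, while 0.041% of all genes tested did (6 genes, Sema3f included). In the ipsilateral hippocampus 0 of the 31 members met it, beside 0.121% of all genes. With 1 library left out at a time, 1 member met the rule once, namely Plxna1 without PTE- a9_14.

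Some members leaned the same way without separating. By exact permutation of log2(CPM + 1), 4 of the 31 members were higher in contralateral PTE+ than PTE- mice with p under 0.05, beside 3.16% of all genes tested. They were Sema3f, Sema3c, Sema3g and Plxna1. Sema3f was already known in this comparison and counts as a description, which leaves Sema3c, Sema3g and Plxna1. For PTE- below sham the same test gave 1 of 31 members, Sema3f, whose PTE- values were already known, beside 2.44% of all genes. For PTE+ above sham in the ipsilateral hippocampus it gave 1 of 31, Sema6a, beside 1.5%. In the remaining comparisons 0 of 31 members had an exact permutation p under 0.05, beside 3.67% of all genes in contralateral PTE+ against sham, 2.15% in ipsilateral PTE+ against PTE- and 2.91% in ipsilateral PTE- against sham. The p-values of these 186 tests are unadjusted.

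Sema3c, a secreted ligand that signals through Nrp1, Nrp2 and Plxnd1, held 39.4, 31.1, 10.99, 52.2 and 18.6 CPM in contralateral PTE+ mice a8_10, a8_17, a9_17, a9_18 and a9_19. In PTE- mice it was at 0 in a8_9, a8_14, a9_14, a9_15 and a9_20, and held 10.1 CPM in a8_11, 18.7 CPM in a8_13, 37.9 CPM in a9_12, 9.40 CPM in a9_13 and 2.46 CPM in a9_16. Of the 5 PTE- libraries with Sema3c, only a8_13 and a9_12 thus lay inside the PTE+ range. All other PTE- libraries lay below the lowest PTE+ library. The PTE- libraries at 0 had 11756 to 13174 detected genes, those with Sema3c 13193 to 15315, and the PTE+ libraries 13859 to 15028. With detected genes as a covariate, Sema3c had no unadjusted p under 0.05 in edgeR, and the relation was not tested otherwise. Its mean difference was 2.97 on the log2(CPM + 1) scale with an exact permutation p of 0.0127, while the edgeR fit gave a log2 fold change of 1.98 (SE 1.48, unadjusted p = 0.194). With limma on log2(TPM + 1), under which the median of all genes was 0.28 in this comparison, Sema3c was 2.62 higher in PTE+ than PTE- mice (unadjusted p = 0.000671, adjusted p = 0.546), and PTE- against sham gave -1.93 (unadjusted p = 0.00832, adjusted p = 0.975). Sham libraries held 17.7, 51.3, 5.60, 8.03 and 23.7 CPM, all above the limit, so Sema3c did not share the zeros of Sema3f in sham mice.

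Sema3g, a class 3 ligand best known from endothelium, held 25.4, 5.63, 30.1, 0 and 3.50 CPM in the same 5 PTE+ libraries and was above the limit in 2 of 10 PTE- libraries, a8_11 (4.87 CPM) and a9_12 (5.80 CPM). The PTE+ library without Sema3g, a9_18, was one with high Sema3f (18.9 CPM). Summed endothelial and mural markers were 5822, 2722, 3034, 1515 and 1824 CPM in these PTE+ libraries, in the same order. They were 1324 CPM in a8_11 and 2833 CPM in a9_12, and 1564 to 3132 CPM in the PTE- libraries without Sema3g. A relation of these sums to Sema3g was not tested. The mean difference of Sema3g was 2.38 on the log2(CPM + 1) scale with an exact permutation p of 0.017, and edgeR gave a log2 fold change of 3.61 (SE 2.07, unadjusted p = 0.095). That value depended on the processing: with detected genes as a covariate Sema3g was 6.45 higher on the log2 scale (SE 1.67, unadjusted p = 0.000919, adjusted p = 1 in edgeR), and limma on log2(TPM + 1) gave 1.62 (unadjusted p = 0.00264, adjusted p = 0.634). The covariate also gave 4.08 against sham mice (unadjusted p = 0.0426 in edgeR). Sham libraries held 4.32 CPM (a8_15), 1.47 CPM (a9_9) and 7.02 CPM (a9_10), with none in a8_16 and a9_11. On the ipsilateral side Sema3g stayed at or below 2.50 CPM in all 17 libraries.

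Plxna1, a plexin that pairs with neuropilins as a receptor of class 3 ligands and also binds Sema6d, held 44.5, 30.8, 35.4, 47.4 and 39.4 CPM in contralateral PTE+ mice. In PTE- mice it ranged from 0.101 to 54.0 CPM with a median of 14.8 CPM, and only a8_13 (30.3 CPM) and a9_14 (54.0 CPM) came near or into the PTE+ range. The mean difference was 1.89 on the log2(CPM + 1) scale with an exact permutation p of 0.0413, and edgeR gave 1.17 (SE 0.80, unadjusted p = 0.155) and limma on log2(TPM + 1) gave 1.23 (unadjusted p = 0.049). With detected genes as a covariate, Plxna1 had no unadjusted p under 0.05 in edgeR. Ipsilateral PTE+ libraries held 63.9, 41.1, 69.1 and 0.0583 CPM, inside the PTE- range of 0.019 to 57.9 CPM apart from a8_10 and a9_18. An antisense gene, Gm26811, overlaps Plxna1 in the annotation, and the kit does not mark strand, so reads of the 2 could not be separated.

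The receptors known to bind Sema3f did not divide the mice as their ligand did. Nrp2, the neuropilin with the highest affinity for Sema3f, held 22.8, 3.16, 17.8, 77.7 and 15.02 CPM in contralateral PTE+ mice and 0.0674 to 111 CPM (median 13.7) in PTE- mice. Its log2 fold change was -0.14 (SE 1.15, p = 0.901 in edgeR) on that side and -1.87 (SE 1.27, p = 0.157 in edgeR) on the ipsilateral side, where PTE+ libraries held 1.03, 16.5, 29.1 and 0.389 CPM and PTE- libraries 0.791 to 131 CPM (median 37.7). In all 4 PTE+ mice Nrp2 was lower on the ipsilateral side, by a mean of -2.14 ± 1.69 (SD) on the log2(CPM + 1) scale, and in 6 of 8 PTE- mice it was higher, with a mean of 1.25 ± 2.30 (SD). The difference of these differences was -3.40, with an exact permutation p of 0.0263 before any adjustment. Leaving aside Sema3f, whose difference is given with no test, Nrp2 was the only one of the 31 members with p under 0.05 in this test. Its difference was lower in PTE+ mice, and 1.49% of all genes had such a p in that direction. The edgeR fit, which unlike this test did not pair the sides of a mouse, gave -2.36 (SE 1.66, unadjusted p = 0.166).

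Nrp1, the neuropilin of Sema3a and of VEGF, held 126, 44.0, 65.1, 17.2 and 61.9 CPM in contralateral PTE+ mice and 0 to 116 CPM (median 23.7) in PTE- mice, and its log2 fold change was 0.66 (SE 1.15, p = 0.569 in edgeR). On the ipsilateral side the values were 32.4, 18.5, 14.5 and 8.15 CPM against 0 to 59.5 CPM (median 32.0), with a log2 fold change of -0.76 (SE 1.35, p = 0.578 in edgeR). Plxna3, the plexin partner of Nrp2 for Sema3f, was above the limit in 4 of 5 contralateral PTE+ libraries and 7 of 10 PTE- libraries, with a log2 fold change of 0.23 (SE 1.48, p = 0.877 in edgeR). On the ipsilateral side it was above the limit in 4 of 4 and 7 of 8 libraries, with a log2 fold change of 0.71 (SE 1.48, p = 0.637 in edgeR). Plxna4, a further co-receptor of class 3 ligands, had log2 fold changes of -0.19 (SE 1.21, p = 0.878 in edgeR) and 0.89 (SE 1.57, p = 0.576 in edgeR) on the 2 sides, and it too overlaps an antisense gene, Plxna4os3. With detected genes as a covariate its ipsilateral log2 fold change was 3.45 (SE 1.08, unadjusted p = 0.00513 in edgeR) against PTE- and 4.10 (SE 1.32, unadjusted p = 0.00623 in edgeR) against sham mice, with adjusted p-values of 1. All 4 receptors had values of 0 or near 0 in single libraries of more than 1 group.

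Sema6a, a transmembrane ligand that binds Plxna2 and Plxna4, was the member with an unadjusted permutation p under 0.05 in ipsilateral PTE+ against sham mice. Of all genes 1.5% had such a p with PTE+ higher. PTE+ libraries held 26.5, 47.3, 75.1 and 60.7 CPM and sham libraries 13.7, 18.9, 9.23, 43.5 and 25.2 CPM, so that 3 of 4 PTE+ libraries lay above every sham library. The mean difference was 1.298 on the log2(CPM + 1) scale with an exact permutation p of 0.0397, and edgeR gave 1.25 (SE 1.38, unadjusted p = 0.377) in the fit of 3 groups. In a fit of these 2 groups alone the p was 0.046 in edgeR (log2 fold change 1.298), with an adjusted p of 1. PTE- libraries spanned 0 to 55.8 CPM and held the 2 lowest values, in a8_11 and a8_14.

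Described by presence alone, the members closest to Sema3f over the 20 contralateral libraries were Sema3b and Sema3g, each on the same side of the limit as Sema3f in 15 libraries. Sema3b, a Nrp1 and Nrp2 ligand whose gene lies 72271 bases from Sema3f, was above the limit in all 8 libraries that had Sema3f and in 5 of the 12 that lacked it. Sema3g was above it in 6 of the 8 and 3 of the 12. Over the 17 ipsilateral libraries Sema3g matched Sema3f in 14 and Sema3b in 8. Members that were always present, such as Plxnb1, matched by definition in 8 contralateral and 5 ipsilateral libraries. These counts share the depth and completeness of each library and carry no test.

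That completeness differed between libraries with and without Sema3f. Contralateral libraries with Sema3f had 24 to 30 of the 31 members above the limit (median 28.5), and those without had 17 to 29 (median 21.5). By group, the contralateral medians were 26.0 in PTE+, 20.5 in PTE- and 28 in sham mice. On the ipsilateral side libraries with Sema3f had 28 to 30 members (median 29.0) and those without 13 to 30 (median 25.5). The part of this difference in the result for Sema3f was not tested beyond the covariate given above.

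**Figure D5:**
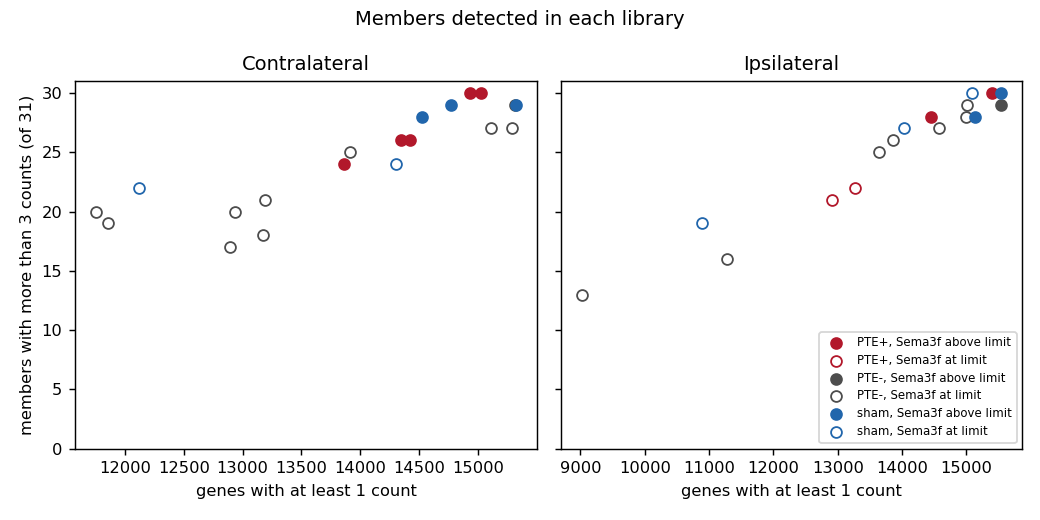
Number of the 31 members with more than 3 counts against the number of genes with at least 1 count, 1 point per library, filled where Sema3f was above the limit and open where it was not. Contralateral PTE- libraries (open gray) reach 29 members and 15315 genes without Sema3f, and filled points in both panels lie at 24 members or more.

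The genes beside Sema3f on chromosome 9 did not divide the mice. Of the 11 genes of the tables within 100 kb, Hyal1, Naa80, Hyal3, Ifrd2, Lsmem2, Sema3b, Gnai2, Slc38a3, Gnat1, Rbm5 and Rbm6, 10 were tested and none separated PTE+ from PTE- libraries in either hemisphere. Slc38a3, a glutamine transporter 11970 bases away, held 858 CPM in contralateral PTE+ and 853 CPM in PTE- mice (log2 fold change 0.00, SE 0.22, p = 0.991 in edgeR). Gnat1, the rod transducin gene 1788 bases away, had the smallest contralateral p of the neighbors, 0.129 in edgeR, with the opposite direction (log2 fold change -1.97, SE 1.25) at means of 0.417 and 1.67 CPM.

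Relative to their means, the 4 most abundant members were among the steadiest, and none had an unadjusted p under 0.05 in edgeR in any of the 6 group comparisons. In the contralateral hippocampus the mean ± SD of Sema4a was 162 ± 46.8 CPM in the 5 PTE+ mice and 202 ± 74.9 CPM in the 10 PTE- mice, and that of Sema6d was 138 ± 47.4 and 137 ± 73.0 CPM. Plxnb1 held 209 ± 65.9 and 230 ± 98.4 CPM and Plxnb2 175 ± 83.9 and 115 ± 58.3 CPM in the same groups. Sema4a fell to 0 CPM in ipsilateral PTE- a8_11 and 6.01 CPM in a8_14, the libraries with the fewest members above the limit (13 and 16), and its other ipsilateral values ran from 99.6 to 351 CPM.

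The wider pathway was followed in a list of 56 genes, comprising 16 co-receptors, 4 further neuropilin ligands, 33 signaling genes and 3 proteases, of which 53 to 55 were tested. In contralateral mice 0 of 53 had an unadjusted p under 0.05 in edgeR in any of the 3 comparisons, with medians of 0.01, 0.11 and 0.03 on the log2 scale for PTE+ against PTE-, PTE- against sham and PTE+ against sham. On the ipsilateral side Fyn, a Src family kinase that relays semaphorin signals, passed in PTE+ against PTE- (log2 fold change 0.53, SE 0.25, unadjusted p = 0.0459 in edgeR, means of 248 and 171 CPM). L1cam, an adhesion protein that joins Nrp1 in the Sema3a receptor, passed in PTE+ against sham (3.89, SE 1.66, unadjusted p = 0.0309 in edgeR, means of 28.6 and 1.93 CPM). In the interaction of side and status Fyn (0.90, SE 0.36, unadjusted p = 0.0177) and Mical3, a member of the oxidoreductase family that plexins recruit (-2.88, SE 1.25, unadjusted p = 0.0279), passed in edgeR. None of these had an adjusted p under 0.05, and 1 or 2 calls among 54 or 55 genes stand beside the 1.66% to 2.94% of all genes given above.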

How the data were processed

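Astrocyte RNA of 20 mice (37 libraries) was measured by RNA-Seq. Per the submitters' processing notes, reads were trimmed with Trim Galore 0.6.4 and quantified with RSEM 1.2.28 and Bowtie2 2.4.1 on mm10, and the authors compared groups with DESeq2 1.36.0. The authors deposited the expected counts of each gene as whole numbers without normalization, and the TPM of the same RSEM runs, an abundance corrected for transcript length. An annotation release is not given in the sources used here, and symbols and positions follow GENCODE for GRCm38 (21856 of 21975 identifiers matched). Libraries held a median of 41775828 (contralateral) and 49177351 (ipsilateral) counts, the depth behind every limit of 3 counts.

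Counts were analyzed in R 4.3.3 with edgeR 4.0.16 (filterByExpr by group, TMM, quasi-likelihood F test, 2-sided, Benjamini-Hochberg over all genes tested), in a fit of the 3 groups of a hemisphere (14642 contralateral and 14903 ipsilateral genes) or of both libraries of 17 mice (15731 genes). Standard errors (SE) given with edgeR are the absolute log2 fold change divided by the square root of F, so they share its dependence on the prior count. CPM came from TMM over all 37 libraries. Exact permutation tests over libraries or mice were 2-sided on log2(CPM + 1). The mouse was checked as a pairing factor: libraries come from the same animal, and their deviations from group means correlated with a median of 0.0789 within and -0.0164 between mice. Within a group and hemisphere, libraries counted as replicates came from separate mice. The fit of both libraries of 17 mice held no mouse term and did not use the pairing. A replicate block by mouse was an alternative. Spearman correlations between any 2 libraries were at most 0.962. Alternatives were RLE size factors, no filter, the mouse prefix as covariate, the 2 groups alone, DESeq2 1.42.0, limma 3.58.1 on log2(TPM + 1), other limits and pseudocounts and leaving out each library. Detected genes as covariate and leaving out the 3 libraries with the fewest genes were added after the data were seen. The fit was tested on simulated counts, where at an adjusted p under 0.05 it called nearly all changed genes at a low spread between libraries and none of them at a spread near that of these libraries. Figures were drawn in Python 3.11.15 with matplotlib 3.10.9.

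The members, marker and pathway lists and comparisons were chosen with earlier results of these data known. Genes named with statistics are Sema3f, its receptors Nrp2, Nrp1, Plxna3, Plxna4 and Plxna1, members with an unadjusted p under 0.05 or separated groups, the most abundant members of each class, genes within 100 kb of Sema3f and pathway genes with an unadjusted p under 0.05. No genome sequence was used.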

Additional observations from a re-analysis of the deposited data

Results flagged for a closer look

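In groups of 4 to 10 libraries, a library that stood apart from the rest of its group by Dixon's ratio on log2(CPM + 1) was looked for in 15 members (90 groups), and 13 were found, where chance gives about 1 in 20 groups of normally distributed values, which groups with many libraries at 0 are not. Sema3f stood apart at 1.04 CPM in contralateral PTE+ a8_17 (the next library held 14.3 CPM), at 0.0479 CPM in contralateral PTE- a9_12, which is 2 counts, and at 11.1 CPM in ipsilateral PTE- a9_12, where the other 7 libraries held none. Sema3c was at 0 CPM in ipsilateral sham a9_9, and Sema3g reached 2.50 CPM in ipsilateral PTE- a9_14. Nrp1 was at 0 CPM in contralateral sham a8_16 and at 0 CPM in ipsilateral sham a9_9, where the next lowest libraries held 27.7 and 29.3 CPM. Nrp2 was at 0.298 CPM in contralateral sham a8_16 and at 0.791 CPM in ipsilateral PTE- a8_14. Plxna1 was at 0.0583 CPM in ipsilateral PTE+ a9_19, and Plxna3 was at 0.0528 CPM in contralateral and 0.854 CPM in ipsilateral PTE+ a9_18, so that its low value recurred in both hemispheres of that mouse. Sema4b was at 3.96 CPM in contralateral PTE+ a8_10, with 27.8 CPM in the next library.

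The ipsilateral minus contralateral difference of Sema3f in PTE+ mice differed from that in PTE- mice by -3.77 on the log2(CPM + 1) scale, being lower on the ipsilateral side in 4 of 4 PTE+ mice. The contralateral values for which Sema3f was already known enter this difference, so it is given with no test. For Nrp2, which binds Sema3f, the same contrast was -3.40 (exact permutation p = 0.0263, lower in 4 of 4 PTE+ and higher in 6 of 8 PTE- mice). This p-value is not adjusted over the 31 members.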

How the results depend on the processing

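The number of members with an unadjusted p under 0.05 was at most 5 under every alternative. With limma on log2(TPM + 1), which moved the median of all genes in contralateral PTE+ against PTE- from -0.05 to 0.28, it was 5 in that comparison, 3 in contralateral PTE- against sham, 1 in contralateral PTE+ against sham and 1 in ipsilateral PTE+ against PTE-. With detected genes as a covariate the number of members was 2, 1 and 1 in the contralateral comparisons, beside 341, 287 and 223 of 14642 genes. It was 2 and 4 in ipsilateral PTE+ against PTE- and against sham, beside 700 and 696 of 14903 genes. Without the 3 libraries of fewest genes it was 1 in ipsilateral PTE+ against sham (Sema6a), beside 523 of 14808 genes. With the 2 groups alone it was also 1 there (Sema6a), beside 191 of 13951 genes. With the 2 groups alone it was 0 in contralateral PTE- against sham, where Sema3f did not pass the filter, beside 133 of 14122 genes. Without the filter on low counts it was 2 in the side comparison of PTE- mice and 2 in the interaction. Of all 19078 genes, 1773 and 818 passed there. With the mouse as a replicate block the number of members was 0 in both, beside 315 and 182 of 15731 genes, and 0 in the other side comparisons. Leaving out 1 library or mouse gave 0 to 1 or 1 to 2 members in the comparisons that changed, and 0 to 2 in the interaction. The adjusted p of Sema3f in contralateral PTE+ against PTE- was 0.0676 with the prefix covariate (log2 fold change 10.84), 0.0589 without the 3 libraries (10.63), 0.225 with detected genes (10.30) and 0.112 with limma (3.43), with log2 fold changes of 10.58 to 11.69 when 1 library was left out, and under 0.05 with RLE, no filter, the 2 groups alone and DESeq2. The permutation difference of Sema3f within prefix a8 was 2.94 for PTE+ against PTE-, within a8 and a9 -0.99 and -2.27 for PTE- against sham (exact p = 0.333 and 0.0833), and within a9 it changed sign to -0.35 and -0.57 for ipsilateral PTE+ against PTE- and sham. Leaving out 1 library moved these differences over 3.52 to 4.52, -2.20 to -1.22 and 1.62 to 2.76 (contralateral PTE+ against PTE-, PTE- against sham, PTE+ against sham) and -0.079 to 1.197, -0.73 to 0.24 and -0.36 to 0.99 (ipsilateral). Fitted values near 0 changed sign: ipsilateral Sema3f in PTE- against sham was -0.52 (prefix), -1.07 (detected genes), -6.03 (DESeq2) and -0.19 (limma), and with 1 library left out ran from -9.06 to 2.82, against -1.84 to 10.31 and -1.81 to 4.04 for ipsilateral PTE+ against PTE- and sham, and 0 to 7.43 between sides in PTE- mice. Contralateral PTE+ against PTE- gave Nrp2 0.21, 0.52 and 0.64 (without 3 libraries, detected genes, limma), Plxna3 -0.038 and -0.37 (without 3 libraries, detected genes), Plxna4 0.051, 1.03, 0.90 and 0.53 (prefix, without 3 libraries, detected genes, limma) and Sema3b -0.15 (detected genes), with left-out ranges of -1.07 to 0.38 for Nrp2, -0.0096 to 0.58 for Plxna3 and -0.93 to 1.08 for Plxna4. The count of members in every library was 8 and 5 with limits of 0 and 10 counts, and the number following Sema3f was 0 with TPM and 0 to 1 with 1 library left out. The cause of these changes was not tested, and at this spread between mice changes of low members could go undetected.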
